A study of Mus musculus with 12 samples.

Results

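The 10 genes described here are used by connective tissue cells to build and pull on extracellular matrix, and they were measured in cultures of mouse bone marrow-derived macrophages (BMDMs). The members were named in a list (Col1a1, Col1a2, Col3a1, Col6a1, Dcn, Lum, Bgn, Sparc, Postn and Acta2) as a measure of stromal cells and of the spread between replicates, and they make 10 of the 43453 genes of the count matrix. For each gene the transcript row with the highest total over the 12 libraries was used. Because the list was drawn up with the values of all 12 libraries in view, the values of these 10 genes are described here without a test.

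Stromal cells are the fibroblasts, marrow reticular cells, osteoblast precursors and mural cells that hold a tissue together. They secrete fibrillar collagen, whose triple helices are trimmed and cross-linked outside the cell, and coat the fibrils with small leucine-rich proteoglycans and matricellular proteins, while smooth muscle cells and myofibroblasts add contractile actin. Bone marrow holds such cells beside the blood-forming ones, and they can attach to the same plastic as macrophages when marrow is put into culture.

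The study used RNA sequencing to ask how TLR4, the receptor for lipopolysaccharide (LPS), shapes the response of macrophages. Marrow came from C57BL/6 mice whose tlr4 gene is flanked by loxP sites (tlr4f/f), or from mice that carry in addition Cre recombinase under the lysozyme M promoter, which is active in myeloid cells and deletes tlr4 there (tlr4f/f-lysM-cre). Macrophages were grown out with M-CSF (50 ng/mL, 7 days), and the groups headed LPS+ then received 1 µg/mL of LPS for 6 hours. Each of the 4 groups held 3 libraries, and nothing in the sources used here says whether these came from separate mice, so p-values measure only the spread between the libraries, which may be technical. All 4 groups shared the floxed tlr4 alleles, the strain and M-CSF, and the age of the marrow donors was not given.

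Groups are named throughout by the headings of the count columns, which give LPS- or LPS+ and then the genotype. The targeted gene went against them. Mean Tlr4 was 114 CPM (counts scaled to a common library size) ± 34.8 (SD, n = 3) in LPS- tlr4f/f and 109 ± 12.7 in LPS- tlr4f/f-lysM-cre, but 27.9 ± 3.37 in LPS+ tlr4f/f and 25.5 ± 1.65 in LPS+ tlr4f/f-lysM-cre. Lyz2, the lysozyme M gene, was at 13113 ± 8962 and 7574 ± 1764 CPM in the 2 groups headed LPS-, and at 11.9 ± 2.22 and 62.0 ± 11.9 CPM in those headed LPS+. LPS- tlr4f/f-lysM-cre may have been exchanged with LPS+ tlr4f/f in the headings. If so, the 3 columns of the former are LPS-treated tlr4f/f cells, and the 3 of the latter are untreated tlr4f/f-lysM-cre cells. The exchange moves no value and turns no sign. It renames each pair of column groups, and both readings are given. Library sizes for CPM were scaled with the trimmed mean of M values (TMM). Totals over the transcript row kept for each gene ran from 33577440 to 56445989 counts.

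All 10 genes were counted in all 12 libraries, and the summed level of the list differed far more within the groups headed LPS- than within those headed LPS+. In LPS- tlr4f/f the summed CPM was 919.8 in replicate 1, 87.0 in replicate 2 and 14.4 in replicate 3. In LPS- tlr4f/f-lysM-cre it was 1315, 190.5 and 2058. The LPS+ tlr4f/f libraries held 39.6, 30.6 and 33.5, and the LPS+ tlr4f/f-lysM-cre libraries 64.3, 51.8 and 46.1. The highest library of a group thus exceeded the lowest by 63.7-fold in LPS- tlr4f/f and by 10.8-fold in LPS- tlr4f/f-lysM-cre, against 1.30-fold and 1.39-fold in the groups headed LPS+. LPS- tlr4f/f replicate 3 lay below all 6 LPS+ libraries, while the other 5 libraries headed LPS- lay above them. As a share of the counts in the rows kept, with 1 transcript row for each gene, the 10 genes made up between 0.00175% and 0.169% of a library. In bulk RNA, fewer stromal cells and less RNA of these genes per stromal cell cannot be told apart.

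**Figure D1:**
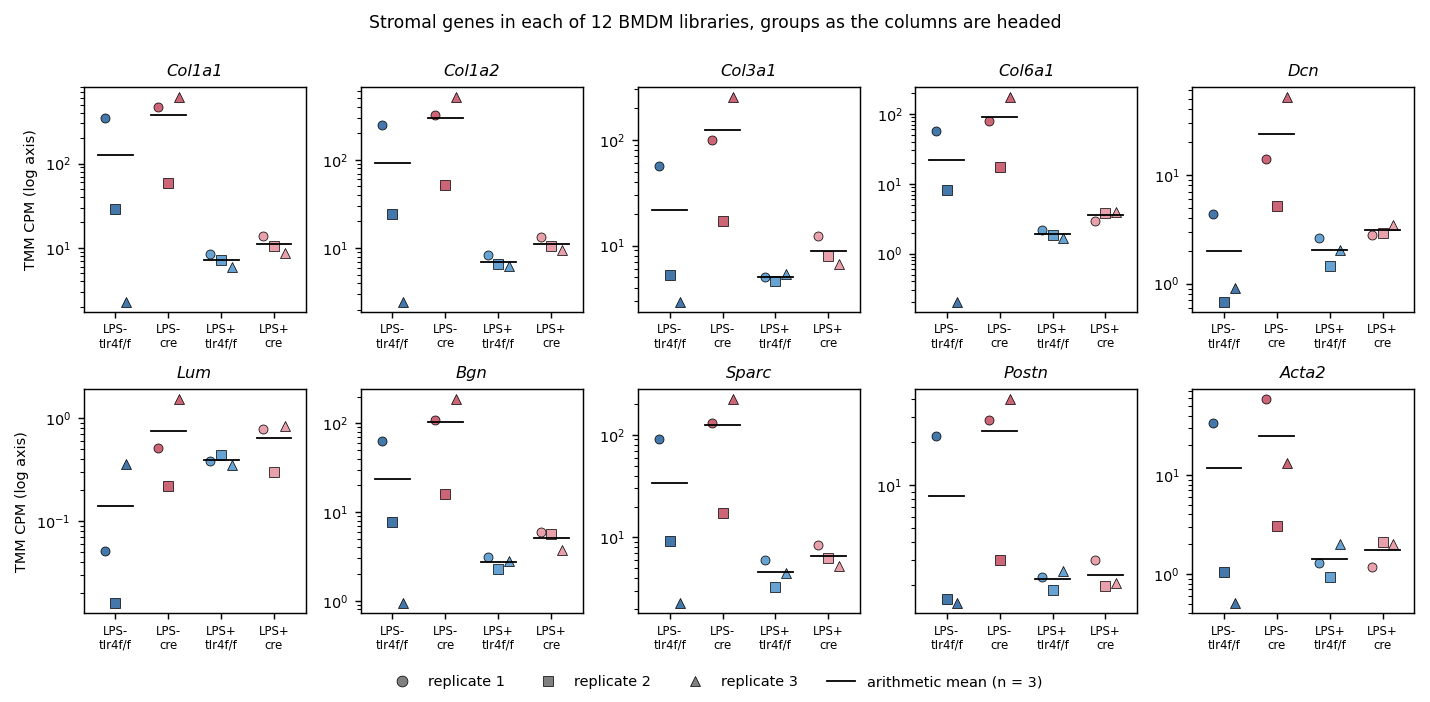
TMM-scaled CPM of the 10 stromal genes in each of the 12 libraries (vertical log axis), grouped by column heading on the horizontal axis (cre stands for tlr4f/f-lysM-cre). Symbols mark replicates 1 to 3 and lines the arithmetic means; for Col1a1 the 3 LPS- tlr4f/f libraries ran from 2.31 to 345 CPM and the 6 LPS+ libraries from 5.99 to 13.8.

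Read as headed, wide spread and high stromal levels were found in untreated cells of both genotypes, and low and even levels in LPS-treated cells. With the exchange, the same libraries are those of tlr4f/f cells with and without LPS, and the low and even ones are tlr4f/f-lysM-cre cells. The macrophage list (10 genes, Csf1r and Adgre1 among them) was present in full in every library, with each gene at 1 CPM or more and a summed level between 5009 and 14731 CPM. Its range over the 3 libraries was 6894 to 7964 CPM in LPS- tlr4f/f and 11663 to 14731 CPM in LPS- tlr4f/f-lysM-cre.

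Markers of 2 other marrow cell types moved with the stromal sum in part. The megakaryocyte list summed to 69.2, 66.7 and 0.843 CPM in LPS- tlr4f/f, 144, 88.8 and 261 in LPS- tlr4f/f-lysM-cre, 16.6 to 20.0 in LPS+ tlr4f/f and 46.2 to 55.1 in LPS+ tlr4f/f-lysM-cre. Most of this sum was Pf4, at 0.768 to 257 CPM over the 12 libraries. The neutrophil list, with 10 of its 11 genes over 3 counts in some library and Ly6g at or under 3 counts in all, summed to 52.8, 30.7 and 3.95 CPM in LPS- tlr4f/f, 60.7, 30.3 and 244 in LPS- tlr4f/f-lysM-cre and 10.6 to 19.8 in the 6 LPS+ libraries. Like the stromal sum, both were lowest of all 12 libraries in LPS- tlr4f/f replicate 3 and highest in LPS- tlr4f/f-lysM-cre replicate 3. The endothelial list had another order, with 37.2, 88.9 and 90.4 CPM in LPS- tlr4f/f and 71.7, 166 and 69.0 in LPS- tlr4f/f-lysM-cre. The part of these cell types in the stromal values was not tested.

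A second set of transcripts also split the libraries. A list of 16 cardiac muscle genes, chosen after their values were seen, summed to 27.4 CPM in LPS- tlr4f/f replicate 3, 224 in LPS- tlr4f/f-lysM-cre replicate 3 and between 114 and 163 in the 6 LPS+ libraries, with 15 of the 16 genes counted in each of these 8. In replicates 1 and 2 of both groups headed LPS- the list summed to between 0.326 and 1.5 CPM. Myh6, the alpha heavy chain of cardiac myosin, had 291 and 2023 counts in the 2 LPS- libraries of the first set, 1175 to 2104 counts in the LPS+ libraries, and 0, 0, 0 and 1 in the other 4. The summed stromal level was 14.4, 2058 and 30.6 to 64.3 CPM in the 8 libraries with cardiac transcripts and 87.0 to 1315 CPM in the 4 without. The part of the cardiac transcripts in the stromal values was not tested.

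**Figure D2:**
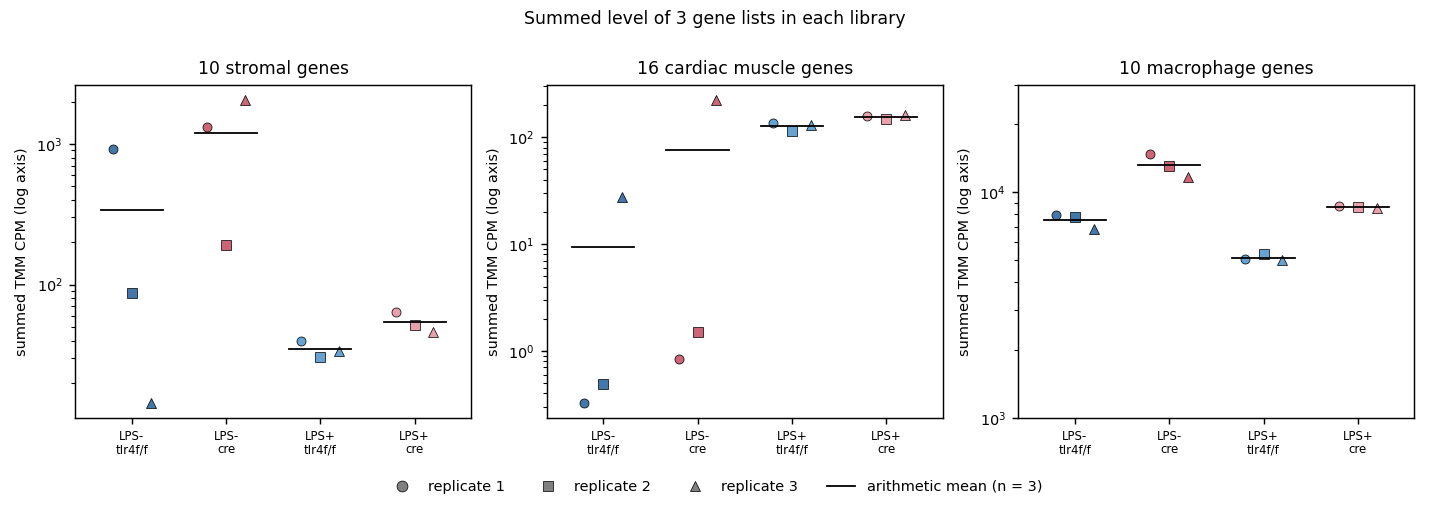
Summed TMM-scaled CPM of the 10 stromal genes, of 16 cardiac muscle genes and of 10 macrophage genes in each library (vertical log axes), grouped by column heading (cre stands for tlr4f/f-lysM-cre); symbols mark replicates and lines arithmetic means. The stromal list ran from 14.4 to 2058 CPM, the cardiac list from 0.326 to 224, and the macrophage list from 5009 to 14731.

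Collagen I is the main fibre of bone, tendon and skin, and its triple helix is built from chains of Col1a1 (chr11:94936224-94953042, + strand, mm10) and Col1a2 (chr6:4504814-4541544, + strand). Col1a1 stood at 345, 29.1 and 2.31 CPM in replicates 1 to 3 of LPS- tlr4f/f, a 149.7-fold range, and at 466, 59.5 and 608 CPM in those of LPS- tlr4f/f-lysM-cre. In the LPS+ tlr4f/f libraries it was 8.52, 7.27 and 5.99 CPM, and in the LPS+ tlr4f/f-lysM-cre libraries 13.8, 10.5 and 8.74. The lowest of all 12 values was thus in a library headed LPS- and not in one headed LPS+. Col1a2 followed it, with 247, 24.3 and 2.47 CPM in LPS- tlr4f/f, 327, 51.9 and 510.4 in LPS- tlr4f/f-lysM-cre, and 6.23 to 13.2 over the 6 LPS+ libraries. The ratio of Col1a1 to Col1a2 counts stayed between 0.919 and 1.43 in every library while each gene moved over more than 2 orders of magnitude, and it was highest in LPS- replicate 1 of each genotype heading (1.40 and 1.43).

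Col3a1, the chain of collagen III of vessels and loose tissue, lies at chr1:45311538-45349706 on the + strand. It reached 56.4, 5.23 and 2.96 CPM in LPS- tlr4f/f and 99.9, 16.9 and 251 CPM in LPS- tlr4f/f-lysM-cre. The 3 LPS+ tlr4f/f libraries held 5.01, 4.61 and 5.43 CPM, which lay within the range of LPS- tlr4f/f, and the LPS+ tlr4f/f-lysM-cre libraries held 12.2, 7.90 and 6.64. Col6a1, a chain of the beaded filaments of collagen VI that surround cells, lies at chr10:76708792-76726168 on the - strand and had the widest range of the 10. It was counted 3343, 509 and 11 times in LPS- tlr4f/f, which is 57.3, 8.11 and 0.206 CPM, a 278-fold range. In LPS- tlr4f/f-lysM-cre it was at 79.7, 17.6 and 172 CPM, and in the LPS+ libraries between 1.65 and 3.89. LPS- tlr4f/f replicate 3 was lower than every LPS+ library for this gene as well.

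The small leucine-rich proteoglycans bind collagen fibrils and set their thickness and spacing. Bgn (chrX:73483602-73495933, + strand) behaved like the collagen I chains, with 62.7, 7.71 and 0.937 CPM in LPS- tlr4f/f, 109, 16 and 187 CPM in LPS- tlr4f/f-lysM-cre and 2.29 to 6.01 CPM in the LPS+ libraries. Dcn (chr10:97479609-97518143, + strand) did not. It was at 4.36, 0.685 and 0.918 CPM in LPS- tlr4f/f, so that replicate 2 and not replicate 3 was the lowest, and at 14.1, 5.17 and 51.6 CPM in LPS- tlr4f/f-lysM-cre. The LPS+ libraries lay between 1.44 and 3.50 CPM, inside the range of LPS- tlr4f/f. Dcn was the one member whose LPS- tlr4f/f-lysM-cre libraries all lay above the LPS- tlr4f/f libraries, and with library size alone in place of TMM, where the median of all genes moved to -0.71 in this pair, no member did.

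Lum (chr10:97565128-97572703, + strand), the gene of lumican, next to Dcn on chromosome 10, was the rarest member and had another order of libraries. Its counts were 3, 1 and 19 in LPS- tlr4f/f, 19, 7 and 49 in LPS- tlr4f/f-lysM-cre, 18, 17 and 20 in LPS+ tlr4f/f and 34, 11 and 38 in LPS+ tlr4f/f-lysM-cre. In LPS- tlr4f/f the library lowest for 8 of the other 9 members was the highest for Lum, 22.3-fold above replicate 2 in CPM, where 1 count leaves the ratio loose. The 4 libraries without cardiac transcripts held 0.0159 to 0.510 CPM of Lum and the 8 with them 0.302 to 1.52. Across the 12 libraries, log2 CPM of Lum correlated with the mean z score of the 10 members with Pearson's r = 0.243, and each of the other 9 with r between 0.913 and 0.994. These correlations share library depth and the members themselves and are given as a description.

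Sparc and Postn code for matricellular proteins, osteonectin, which binds collagen and calcium in bone, and periostin, which aids collagen cross-linking. Sparc (chr11:55394500-55423183, - strand) was at 91.0, 9.21 and 2.29 CPM in LPS- tlr4f/f, 131, 17.2 and 222 CPM in LPS- tlr4f/f-lysM-cre and 3.30 to 8.40 CPM in the LPS+ libraries. Postn (chr3:54361109-54391037, + strand) was at 22.1, 1.59 and 1.48 CPM in LPS- tlr4f/f, where replicates 2 and 3 lay close together, at 28.7, 2.99 and 40.0 CPM in LPS- tlr4f/f-lysM-cre and at 1.83 to 2.97 CPM in the LPS+ libraries. The lowest LPS- tlr4f/f-lysM-cre library, replicate 2, was thus only just above the highest LPS+ library for Postn.

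Acta2 (chr19:34241090-34255590, - strand) codes for the actin of smooth muscle and myofibroblasts. It stood at 33.6, 1.04 and 0.506 CPM in LPS- tlr4f/f and at 58.5, 3.05 and 13.2 CPM in LPS- tlr4f/f-lysM-cre. It was the one member for which replicate 1 and not replicate 3 was highest in LPS- tlr4f/f-lysM-cre, by 4.44-fold, while Dcn was at 0.273 of the replicate 3 level in replicate 1. The LPS+ libraries held 0.928 to 2.11 CPM. Tagln and Tpm2, an actin-binding protein and a tropomyosin of smooth muscle outside the list, ranged from 0.843 to 23.6 CPM and from 0.0562 to 8.91 CPM over the 12 libraries.

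Compared per length (CPM per kilobase of transcript), Col1a1 and Col1a2 led in both groups headed LPS-, with group means of 21.2 and 17.5 in LPS- tlr4f/f and 63.7 and 56.8 in LPS- tlr4f/f-lysM-cre. In the groups headed LPS+ Sparc led, with 1.74 in LPS+ tlr4f/f and 2.51 in LPS+ tlr4f/f-lysM-cre, followed by Col1a2 with 1.34 and 2.11. Lum was last in all 4 groups, between 0.0680 and 0.362 CPM per kilobase. Dcn was the ninth of the 10 in LPS- tlr4f/f with 1.05 and the fifth in both LPS+ groups with 1.08 and 1.64, although its LPS- tlr4f/f level rested on replicate 1.

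The proportions among the members differed between libraries. For Lum, Col3a1, Sparc and Postn LPS- tlr4f/f replicate 3 stood above all LPS+ libraries, and for Dcn, Col1a2, Bgn and Acta2 within their range. For all of these genes it stood above the other replicates of its group. For every 100 counts of Col1a1, Dcn had 1.26 and 2.35 counts in LPS- tlr4f/f replicates 1 and 2 and 39.8 in replicate 3, and between 19.9 and 40.0 in the 6 LPS+ libraries. Lum had 0.0149, 0.0547 and 15.4 in LPS- tlr4f/f, and 2.87 to 9.62 in the LPS+ libraries. Col3a1 had 16.3, 17.9 and 128, and 58.8 to 90.7 in the LPS+ libraries. Sparc had 26.4, 31.6 and 99.2 in LPS- tlr4f/f, and 45.4 to 75.1 in the LPS+ libraries. Postn had 6.40, 5.47 and 64.2, and 18.5 to 41.7 in the LPS+ libraries. For Dcn, Lum and Col3a1 the 3 LPS- tlr4f/f-lysM-cre libraries stood above replicates 1 and 2 of LPS- tlr4f/f and below the LPS+ libraries. They had 3.02 to 8.70 for Dcn, 0.109 to 0.367 for Lum and 21.4 to 41.3 for Col3a1. This included replicate 3, which carried the highest cardiac sum of all 12 libraries. Acta2 had 9.72 and 12.6 counts for 100 of Col1a1 in the replicates numbered 1 of the LPS- groups, 2.17 in LPS- tlr4f/f-lysM-cre replicate 3 and 8.53 to 33.6 in the LPS+ libraries. Col6a1 went the other way, with 16.6, 27.8 and 8.94 in LPS- tlr4f/f, so that replicate 3 was the lowest of all 12 libraries on 11 counts of Col6a1, and 21.4 to 44.6 in the LPS+ libraries. For scale, 123 counts of Col1a1 in LPS- tlr4f/f replicate 3 stood behind these ratios, and 282 to 598 in the LPS+ libraries.

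**Figure D3:**
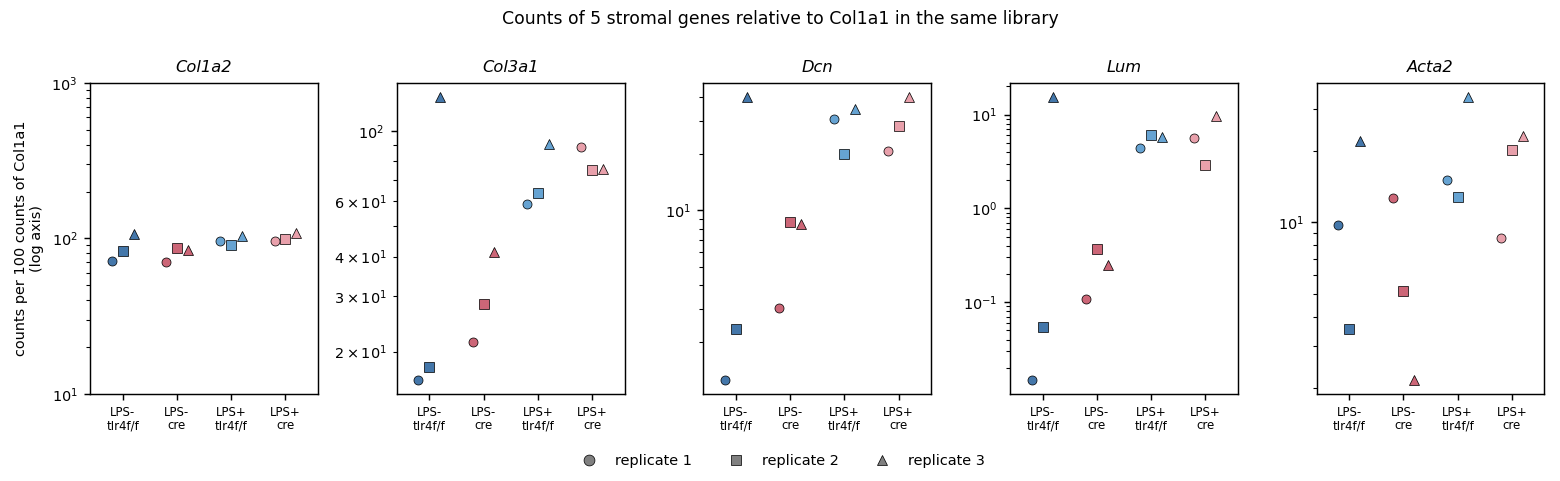
Counts of Col1a2, Col3a1, Dcn, Lum and Acta2 for every 100 counts of Col1a1 in the same library (vertical log axes), grouped by column heading (cre stands for tlr4f/f-lysM-cre), with symbols for replicates. Col1a2 stayed between 70.2 and 109, while Lum ran from 0.0149 to 15.4, with LPS- tlr4f/f replicate 3 above the LPS+ libraries.

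The spread between replicates was set beside that of all 15792 genes kept by the count filter. The 10 members were listed with these values in view, as a measure of this spread. Their place among all genes is therefore a description and no test. The median over the 10 members of the SD of log2 CPM was 2.83 in LPS- tlr4f/f and 1.85 in LPS- tlr4f/f-lysM-cre, where the median of all genes was 0.33 and 0.37. It was 0.22 in LPS+ tlr4f/f and 0.34 in LPS+ tlr4f/f-lysM-cre, where that of all genes was 0.12 and 0.13. In LPS- tlr4f/f 8 of the 10 members, and in LPS- tlr4f/f-lysM-cre 9 of the 10, lay above the 95% quantile of all genes (1.68 and 1.62), and in the LPS+ groups 0 did (quantiles 0.76 and 0.82). The exceptions were Dcn and Lum in LPS- tlr4f/f, with SDs of 1.40 and 1.43, and Lum in LPS- tlr4f/f-lysM-cre, with 1.30. The spread rested on single libraries: in LPS- tlr4f/f it was 1.67 without replicate 1 and 3.97 without replicate 2, and in LPS- tlr4f/f-lysM-cre it was 0.67 without replicate 2 and 2.36 without replicate 1.

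**Figure D4:**
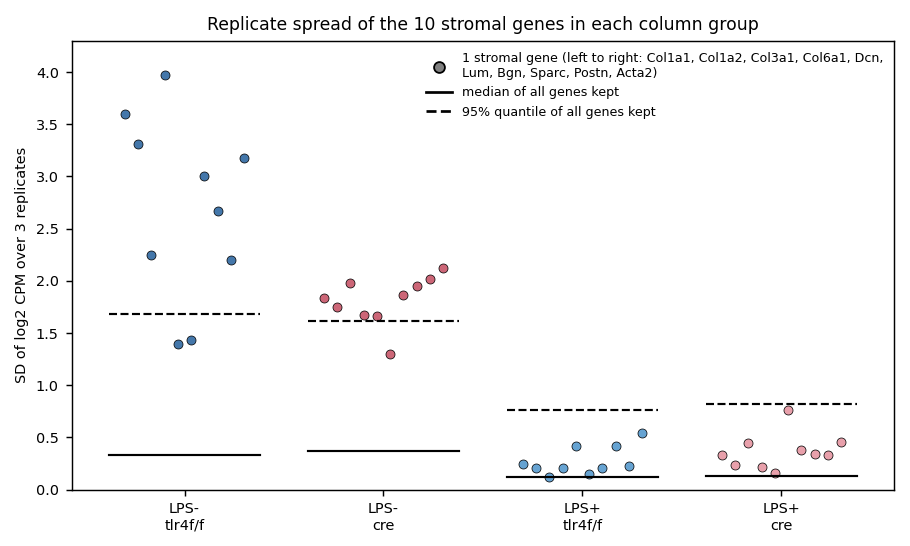
SD of log2 CPM over the 3 replicates of each column group (vertical axis) for each of the 10 stromal genes (points), with the median (solid line) and the 95% quantile (dashed line) of the 15792 genes kept; cre stands for tlr4f/f-lysM-cre. In the groups headed LPS-, 8 and 9 of the 10 genes lie above the dashed line, and in those headed LPS+ all lie below it. The genes were listed with these values in view, so their place is a description.

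The same library was high for nearly all members at once. LPS- tlr4f/f replicate 1 was the highest of its group for 9 of the 10 members and for 32.0% of all genes kept, with Lum the exception. Replicate 3 was the lowest for 8 members and for 37.8% of all genes. LPS- tlr4f/f-lysM-cre replicate 2 was the lowest for all 10 members and for 32.1% of all genes, and replicate 3 the highest for 9 members and for 33.9% of all genes. In the LPS+ groups the highest library varied with the gene, with 6, 1 and 3 members for replicates 1 to 3 of each group. Between replicates 1 and 2 the ratio of the members' CPM had a median of 10.0 in LPS- tlr4f/f and 6.56 in LPS- tlr4f/f-lysM-cre, from 3.23 for Lum to 32.4 for Acta2 in the former and from 2.34 for Lum to 19.2 for Acta2 in the latter.

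The 250 bases before the RefSeq start of 3 members that shared this pattern are shown because they hold a CCAAT or TATAAA motif, while the genes moved together between libraries. They come from the GRCm38.p6 assembly (RefSeq), with capitals for these motifs, which were searched on both strands. Col1a2 is shown from chr6:4505368-4505617, Col3a1 from chr1:45311288-45311537 and Postn from chr3:54360857-54361106, all on the + strand and 5′ to 3′. The Col1a2 window lies inside the span given for the gene above, so its RefSeq start is downstream of the start of that span.
Col1a2: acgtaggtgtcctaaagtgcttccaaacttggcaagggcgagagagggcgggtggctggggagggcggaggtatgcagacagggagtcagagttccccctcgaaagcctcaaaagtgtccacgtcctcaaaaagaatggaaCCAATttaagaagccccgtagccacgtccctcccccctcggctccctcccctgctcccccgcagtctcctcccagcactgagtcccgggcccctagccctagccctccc
Col3a1: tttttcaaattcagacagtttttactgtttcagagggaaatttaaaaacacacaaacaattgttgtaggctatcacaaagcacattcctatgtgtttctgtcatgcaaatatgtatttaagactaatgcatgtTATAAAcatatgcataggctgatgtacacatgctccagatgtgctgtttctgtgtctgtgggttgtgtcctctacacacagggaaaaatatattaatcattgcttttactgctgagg
Postn: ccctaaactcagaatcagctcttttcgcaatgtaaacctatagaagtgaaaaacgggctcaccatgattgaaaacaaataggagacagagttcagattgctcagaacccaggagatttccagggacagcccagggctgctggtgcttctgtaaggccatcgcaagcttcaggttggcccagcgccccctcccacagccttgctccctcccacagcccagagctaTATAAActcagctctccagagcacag
A promoter window was matched for 7 of the 10 members, with 2 windows for Postn (Col1a2, Col3a1, Col6a1, Sparc, Postn, Acta2 and Bgn). Like that of Col1a2, the Sparc window lay inside the span given for its gene, and the windows of Acta2 and Col6a1 did so in part. CCAAT was found in 1 of the 7, Col1a2, at position -109 from the start, and in 33.8% of 32851 windows. TATAAA was found in Postn at -26 and in Col3a1 at -117, and in 12.4% of windows. The AP-1 motif TGANTCA was found in Col6a1 alone and in 6.75% of windows, and the GC box GGGCGG in Bgn and Col1a2 and in 32.7%. The strict CArG box, CCWWWWWWGG with W for A or T, was found in none of the 7 and in 1.47%. Near matches with a base off were not counted, such as ccctatatgg and ccttgtttgg in the Acta2 window. No motif was thus common to the 7, and these matches are a description of letters, not of binding.

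Between the column groups, the members' values are given as a description. In LPS- tlr4f/f-lysM-cre against LPS- tlr4f/f, the CPM of 1 of the 10 members (Dcn) did not overlap between the groups and was higher, against 23.8% of all genes kept that were higher without overlap, 28.3% that were lower and 52.1% in either direction, and the fitted log2 differences ran from 1.09 (Acta2) to 3.58 (Dcn), all higher in the former. As headed this pair compares genotypes without LPS, and with the exchange it is the effect of LPS in tlr4f/f cells. In LPS+ tlr4f/f against LPS- tlr4f/f all 10 overlapped, where 33.8% of all genes did not, with log2 differences from -4.11 (Col1a1) to 1.49 (Lum), and 2 members (Dcn and Lum) not lower. As headed this pair is LPS in tlr4f/f cells, and with the exchange it compares genotypes without LPS. The fitted differences follow the arithmetic mean, and so the 1 or 2 high libraries of each LPS- group.

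In LPS+ tlr4f/f-lysM-cre against LPS- tlr4f/f-lysM-cre, 9 of the 10 members lay lower in all 3 libraries of the former without overlap, against 21.6% of all genes lower, 23.9% higher and 45.5% in either direction, with log2 differences from -5.11 (Col1a1) to -2.94 (Dcn) for the 9 and -0.22 for Lum, whose mean log2 CPM was higher with TMM and lower with DESeq2's size factors. As headed this pair is LPS in tlr4f/f-lysM-cre cells, and with the exchange it compares genotypes under LPS. In LPS+ tlr4f/f-lysM-cre against LPS+ tlr4f/f, 6 of the 10 (Col1a1, Col1a2, Col3a1, Dcn, Bgn and Col6a1) were higher without overlap, against 31.3% of all genes higher and 64.5% in either direction, with log2 differences from 0.60 to 0.92 for the 6 and from 0.08 (Postn) to 0.76 (Lum) for the rest. As headed this pair compares genotypes under LPS, and with the exchange it is LPS in tlr4f/f-lysM-cre cells. With library size alone in place of TMM the median of all genes moved to -0.31 in this pair, Postn turned lower and 1 member (Col6a1) remained without overlap. In order of group means, 8 of the 10 members ran from LPS- tlr4f/f-lysM-cre over LPS- tlr4f/f, then LPS+ tlr4f/f-lysM-cre, to LPS+ tlr4f/f, and for these 8 the first 3 groups in that order overlapped with their neighbours, while the last 2 did not overlap for 5 of the 8. Dcn and Lum had LPS- tlr4f/f last.

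To see whether other stromal genes behaved alike, 96 companion genes in 7 lists, chosen with earlier results of these data known, were tested in the fit across all genes, with a differentially expressed gene (DEG) taken as over 2-fold with an adjusted p below 0.01 in edgeR's quasi-likelihood test. They are other genes than the members, but come from the same libraries and hence the same cultures. Of the 80 kept over all 12 libraries, 68 were highest in replicate 1 of LPS- tlr4f/f (32.0% of all genes) and 53 lowest in its replicate 3 (37.8%). In LPS- tlr4f/f-lysM-cre, 62 were lowest in replicate 2 (32.1%). There the highest library was replicate 3 for 47 (33.9%) and replicate 1 for 25 (31.4%). Across the 12 libraries 33 of the 80 had r of 0.9 or more with the mean z score of the members, as had 222 of 15782 genes ranked. By list, 8 of 13 other collagen chains, 9 of 20 other matrix proteins, 7 of 17 collagen processing genes, 5 of 10 mesenchymal receptors and transcription factors, 2 of 4 osteoblast genes, 1 of 10 contractile and mural cell genes and 1 of 6 marrow stroma genes reached 0.9.

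The 10 genes most like the members over the 12 libraries, by r of log2 CPM with their mean z score, were Prrx1 (0.985), Yap1 (0.984), Smoc2 (0.984), Pxdn (0.983), Fstl1 (0.981), Nid1 (0.98), Ltbp1 (0.977), Gpx8, Tead1 and Tbx3 (0.974 each). Prrx1, a homeobox factor of mesenchyme, was at 7.55, 0.398 and 0.0375 CPM in LPS- tlr4f/f, 18.2, 2.74 and 52.8 in LPS- tlr4f/f-lysM-cre and 0.129 to 1.04 in the LPS+ libraries. Yap1 and Tead1, a transcriptional co-activator and its DNA-binding partner, were at 2.61 and 3.05 CPM in LPS- tlr4f/f replicate 1 and at 0.0375 and 0.0937 in replicate 3. Fstl1, a secreted glycoprotein of mesenchyme, was at 113 CPM in LPS- tlr4f/f-lysM-cre replicate 3 and 0.928 to 3.38 in the LPS+ libraries.

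In LPS- tlr4f/f-lysM-cre against LPS- tlr4f/f, 4 of the 74 companions tested were DEGs, all higher (edgeR), 5.41% against 17.1% of all genes (9.26% higher and 7.81% lower). An unadjusted p below 0.05 (edgeR) was found for 14 of the 74 and for 7011 of all 14649 genes. The 4 DEGs were Vcan, Angpt1, P4ha1 and Plod3. The median log2 difference of the 74 companions was 1.49, beside -0.08 over all genes. Vcan, a large proteoglycan of loose matrix that macrophages also make, was at 7.77, 1.53 and 0.787 CPM against 334, 485 and 135 CPM, a log2 difference of 6.54 (SE 1.10, adjusted p = 0.00573, edgeR). P4ha1, a prolyl hydroxylase of collagen, was even within groups, with 84.4 ± 5.0 against 255 ± 42.7 CPM (log2 1.59, SE 0.166, adjusted p = 0.00122, edgeR), higher in all 3 libraries than in any of the other group. Angpt1, a vessel growth factor of marrow stroma, was at 0.184 ± 0.133 against 6.84 ± 3.0 CPM (log2 5.17, SE 0.662, adjusted p = 0.0022, edgeR), and Plod3, a lysyl hydroxylase, was higher by 1.15 on the log2 scale (adjusted p = 0.00683, edgeR). Without any 1 of LPS- tlr4f/f replicates 2 and 3 or of the 3 LPS- tlr4f/f-lysM-cre replicates, 2 companions were DEGs, and without LPS- tlr4f/f replicate 1 there were 6. The call of Plod3 was lost in all 6 of these fits and that of Vcan in 5 of 6, while P4ha1 and Angpt1 kept theirs in 6 of 6. In the 4 libraries without cardiac transcripts, a choice made after the data were seen, P4ha1 alone was a companion DEG. The number of all genes called in these fits with fewer libraries is not given here. Their counts therefore do not tell a shift of the companions from one of all genes.

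**Figure D5:**
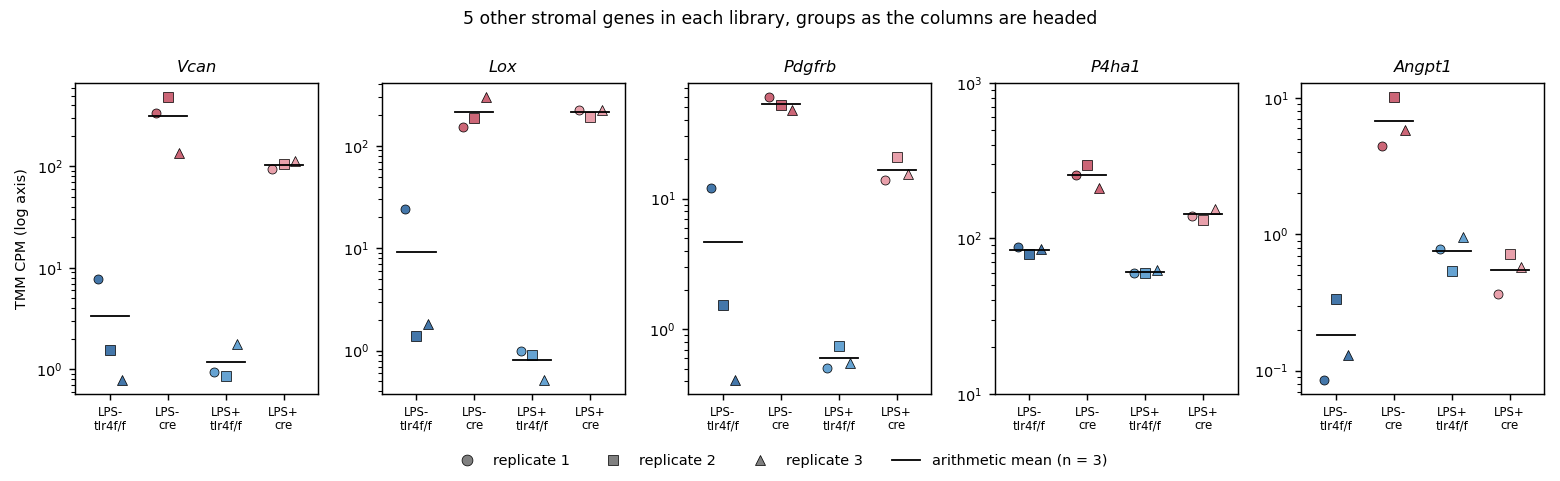
TMM-scaled CPM of Vcan, Lox, Pdgfrb, P4ha1 and Angpt1 in each of the 12 libraries (vertical log axes), grouped by column heading (cre stands for tlr4f/f-lysM-cre), with symbols for replicates and lines for arithmetic means. Lox lay between 193 and 226 CPM in LPS+ tlr4f/f-lysM-cre and between 0.520 and 0.989 in LPS+ tlr4f/f.

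In LPS+ tlr4f/f against LPS- tlr4f/f, 0 of the 62 companions tested were DEGs with edgeR, as were 0% of all 14712 genes. An unadjusted p below 0.05 (edgeR) was found for 18 of the 62 and for 3626 of all 14712 genes. DESeq2 called 4 and limma 1. The median log2 difference of the companions was -1.43, beside -0.03 over all genes, and it was -0.02 without LPS- tlr4f/f replicate 1. Without LPS- tlr4f/f replicate 3 there were 2 companion DEGs. For these alternatives the number of all genes called is not given here.

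In LPS+ tlr4f/f-lysM-cre against LPS- tlr4f/f-lysM-cre, 11 of the 68 companions tested were DEGs, all lower (edgeR), 16.2% against 6.09% of all genes (2.42% higher and 3.66% lower). By list they were 3 of 13 other collagen chains (Col6a2, Col6a3 and Col12a1), 2 of 17 other matrix proteins (Fbn1 and Tnc), 4 of 16 collagen processing genes (Serpinh1, Plod1, Plod3 and Bmp1), 1 of 8 mesenchymal receptors and transcription factors (Pdgfrb) and 1 of 5 marrow stroma genes (Angpt1). Col6a3, the partner chain of Col6a1 in collagen VI, was at 54.9, 7.98 and 54.2 CPM in LPS- tlr4f/f-lysM-cre and 1.08, 1.29 and 1.17 in LPS+ tlr4f/f-lysM-cre, a log2 difference of -5.05 (SE 0.770, adjusted p = 0.00658, edgeR). Col6a2 and Col12a1 differed by -4.92 and -4.96. Pdgfrb, a growth factor receptor of mural cells and fibroblasts, was even within groups, with 53.1 ± 6.14 against 16.7 ± 3.7 CPM (log2 -1.66, SE 0.186, adjusted p = 0.00273, edgeR). The count was 47 without LPS- tlr4f/f-lysM-cre replicate 2 and 7 without its replicate 1, with the number of all genes called not given here. It was 0 without any 1 of the LPS+ tlr4f/f-lysM-cre replicates, where 4 to 15 of all genes were called. The calls of Col6a2, Col6a3 and Col12a1 were lost in 5 of these 6 fits, and those of Pdgfrb and Plod3 in 3. The median log2 difference of the companions was -2.70, and between -2.94 and -2.77 without 1 of the LPS+ replicates.

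In LPS+ tlr4f/f-lysM-cre against LPS+ tlr4f/f, where replicates were even and all 6 libraries held cardiac transcripts, 19 of the 62 companions tested were DEGs, 15 higher and 4 lower (edgeR), 30.6% against 21.8% of all genes. The 15 included 5 of 16 other matrix proteins, 3 of 12 other collagen chains, 3 of 15 collagen processing genes and 3 of 6 mesenchymal receptors and transcription factors, and none of 6 contractile and mural cell genes. The largest difference was that of Lox, the lysyl oxidase that cross-links collagen, with 0.804 ± 0.249 CPM in LPS+ tlr4f/f and 214 ± 17.9 CPM in LPS+ tlr4f/f-lysM-cre, a log2 difference of 8.10 (SE 0.155, adjusted p = 3.28e-10, edgeR). Vcan followed with 1.19 ± 0.505 and 104 ± 9.50 CPM (log2 6.40, adjusted p = 3.75e-07, edgeR), and Pdgfrb with 0.603 ± 0.128 and 16.7 ± 3.7 CPM (log2 4.81, adjusted p = 2.58e-09, edgeR). These 3 exceeded the differences of the members, of which the fitted values in this pair lay at 0.92 or less.

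The 4 companions that were lower in LPS+ tlr4f/f-lysM-cre were Fgfr1, Kitl, Runx2 and Cxcl14. Kitl, the stem cell factor that marrow stroma presents to blood progenitors, was at 77.9, 62.1 and 48.5 CPM in LPS+ tlr4f/f and 11.7, 11.6 and 8.01 CPM in LPS+ tlr4f/f-lysM-cre (log2 -2.59, SE 0.247, adjusted p = 0.000349, edgeR), and its r with the members over the 12 libraries was -0.652. Fgfr1, a fibroblast growth factor receptor, differed by -3.26 (adjusted p = 0.00258, a call lost in 3 of the 6 fits that left out 1 library), Runx2, the master regulator of osteoblasts, by -1.59 (adjusted p = 9.95e-06), and the chemokine Cxcl14 by -1.14 (adjusted p = 1.08e-06, all edgeR). The r of these last 3 with the members was 0.202, -0.155 and 0.449.

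Some companions followed the members less closely, and the abundant Colgalt1 went the other way, with r of -0.752. Lox, Vcan and Pdgfrb had r of 0.609, 0.619 and 0.757 with the members, and P4ha1, Plod3 and Angpt1 of 0.64, 0.64 and 0.54. Lox was at 153, 185 and 299.7 CPM in LPS- tlr4f/f-lysM-cre and at 24.2, 1.39 and 1.82 CPM in LPS- tlr4f/f, where replicate 1, the library richest in the members, was again the highest. Col18a1, a basement membrane collagen, Fn1, fibronectin, and Colgalt1, which adds sugar to collagen, had the highest mean CPM of their lists and ranged from 78.1 to 699, 2.29 to 574 and 164 to 381 CPM over the 12 libraries. In the osteoblast list, Alpl, a phosphatase of bone-forming cells, followed the members with r of 0.930 and a range from 0.0750 to 74.8 CPM, while Bglap2 and Dmp1, genes of mature bone cells, had no more than 3 counts in any library, as had Tcf21 and the fat cell gene Adipoq of the other lists.

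The interaction of genotype and LPS, which is the same contrast in both readings, gave 1 DEG among 80 companions, 1.25% against 0.994% of all genes (0.589% higher and 0.405% lower, edgeR). An unadjusted p below 0.05 (edgeR) was found for 7 of the 80 and for 3692 of all 15792 genes. The DEG was Angpt1, with a log2 value of -5.65 (SE 0.731, adjusted p = 0.00364, edgeR). Its mean CPM was 0.184 ± 0.133 in LPS- tlr4f/f, 6.84 ± 3.0 in LPS- tlr4f/f-lysM-cre, 0.758 ± 0.207 in LPS+ tlr4f/f and 0.552 ± 0.173 in LPS+ tlr4f/f-lysM-cre. The call was lost, with an adjusted p between 0.0118 and 0.0181, when any 1 of the 6 LPS+ libraries was left out. For the members, the fitted interaction ran from -2.97 (Dcn) to -0.78 (Acta2) as a description.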

How the data were processed

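RNA of 12 BMDM cultures was sequenced as paired-end reads of 150 bases. The labels name both rRNA removal and polyA selection. Per the labels and the study's methods, the authors trimmed reads (Trimmomatic 0.36, FastQC), aligned them to mm10 with HISAT2 and deposited raw HTSeq counts with 1 row per transcript (115140 rows, 43453 genes, 0 rows without a gene name, 0 columns without a sample). The deposited transcript lengths served for levels per length.

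For each gene the row with the highest total was kept, so counts of other isoforms are not included. Counts were scaled with TMM and tested with edgeR 4.0.16 (filterByExpr, robust quasi-likelihood, Benjamini-Hochberg over all genes tested) in R 4.3.3, with the 6 libraries of each pair, or all 12 for the interaction. As in the study, DEGs were genes past a 2-fold change with an adjusted p under 0.01. DESeq2 1.42.0, limma 3.58.1, other scalings and filters, sums over transcript rows, a replicate block, a single fit and leaving out each library were alternatives. Groups were taken from the column headings. The members and lists were chosen with earlier results of these data known.

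Named genes were the members, Tlr4, Lyz2, the 2 genes of highest mean CPM in each list, up to 3 DEGs per direction of largest fold change without overlap and with at least 10 counts in the higher group, and the 10 genes most alike. The other companion DEGs listed by name, and the cardiac list, were chosen after their values were seen. On simulated data of 14551 genes for LPS+ tlr4f/f-lysM-cre against LPS+ tlr4f/f, 85.0% of 200 genes changed by 2 on the log2 scale were recovered, and on 14649 genes for LPS- tlr4f/f-lysM-cre against LPS- tlr4f/f 23.0%.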

Additional observations from a re-analysis of the deposited data

Results flagged for a closer look

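The interaction of genotype and LPS for Angpt1, a test of the difference between the effects under the 2 conditions itself, had a log2 value of -5.65 (SE 0.731, adjusted p = 0.00364, edgeR). Its CPM ran from 4.48 to 10.2 in LPS- tlr4f/f-lysM-cre and from 0.0858 to 0.954 in the other 9 libraries, with 5 to 21 counts in LPS- tlr4f/f. The call was lost in 6 of the 12 fits that each left out 1 library. It was 1 DEG among 80 companions, 1.25% against 0.994% of all genes. The contrast is the same whether or not the 2 headings are exchanged.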

How the results depend on the processing

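Of 279 alternatives for 17 named gene changes, 214 kept the call, 65 kept the direction but not the call and 0 reversed. For LPS- tlr4f/f-lysM-cre against LPS- tlr4f/f (4 companion DEGs), DESeq2 gave 11, all 12 libraries in 1 fit 9, an adjusted p below 0.05 7, the 8 libraries with cardiac transcripts 61, the 4 without 1, and leaving out a library 2 to 6. For LPS+ tlr4f/f against LPS- tlr4f/f (0), DESeq2 gave 4, limma 1, 1 fit 1, the 8 libraries 16, and leaving out a library 0 to 2. For LPS+ tlr4f/f-lysM-cre against LPS- tlr4f/f-lysM-cre (11), DESeq2 gave 44, 1 fit 6, an adjusted p below 0.05 37, the 8 libraries 57, and leaving out a library 0 to 47. For the LPS+ pair (19), 1 fit gave 6 and leaving out a library 13 to 18. For the interaction (1), at least 10 counts in every library gave 0, the 8 libraries 46, and leaving out a library 0 to 1. Most of these counts, here and above, stand without the share of all genes called in the same fit. They therefore do not tell a shift of the companions from one of all genes. The cause of these shifts was not tested, and the 2 choices of libraries by cardiac transcripts were made after seeing the data. In the 8 libraries replicate 3 alone stands for each LPS- group and is assumed to vary like the LPS+ libraries, although the members' median SD on the log2 scale was 2.83 and 1.85 in the LPS- groups and 0.22 and 0.34 in the LPS+ groups, so the counts 61, 16, 57 and 46 are no test of these comparisons.

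With sums over transcript rows the mean summed CPM of the members went from 340.4 to 131 in LPS- tlr4f/f, 1188 to 456 in LPS- tlr4f/f-lysM-cre, 34.5 to 16.1 in LPS+ tlr4f/f and 54.1 to 23.6 in LPS+ tlr4f/f-lysM-cre. Such a sum cannot lower the counts of a gene. The library totals behind the CPM were then also summed over rows, so these values are on another scale than the main ones. With library size alone it was 40.7 in LPS+ tlr4f/f. Leaving out a library gave 50.7 to 503 in LPS- tlr4f/f, 753 to 1686 in LPS- tlr4f/f-lysM-cre, 32.0 to 36.5 in LPS+ tlr4f/f and 49.0 to 58.1 in LPS+ tlr4f/f-lysM-cre. The median spread of the members ran from 1.67 to 3.97, 0.67 to 2.36, 0.21 to 0.26 and 0.18 to 0.41 in the same order.

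Adding a replicate block to the fit gave 5, 0, 5 and 22 companion DEGs in the 4 pairs and 1 in the interaction. The correlation of deviations of same-numbered libraries was 0.472, 0.34 and 0.0138 for replicates 1 to 3 of the LPS- groups and between -0.0374 and 0.19 in the other pairs, so not every pair passed 0.1 and the numbers were not taken to pair libraries. In the 4 pairs 4, 3, 2 and 6 of 6 libraries correlated best with their own number, a hint from the data and not the design.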
